A study of Mus musculus with 10 samples.

Results

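IGKV1 is one of the V gene families of the mouse *Igk* locus, which encodes the kappa light chain of the B-cell receptor. In each library described here, IGKV1-110 is its member with the most clonotypes (defined below). The family was taken as 10 genes: IGKV1-110, IGKV1-115, IGKV1-117, IGKV1-122, IGKV1-132, IGKV1-133, IGKV1-135, IGKV1-35, IGKV1-88 and IGKV1-99. A clonotype, which is 1 row of a deposited table with its V gene, J gene and CDR3 amino acid sequence, was counted to a member when that gene was the only V gene listed for it. The 10 members were among 103 *Igkv* genes found this way, and they held 5438 of 44103 clonotypes (12.3%).

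To compare light chain use with and without the surrogate light chain, rearranged *Igk* was amplified from genomic DNA of sorted peritoneal cavity B cells of C57BL/6 mice aged 6 to 8 weeks. The 6 libraries comprise 2 of wild-type B-1a cells, 2 of *Igll1*-/- B-1a cells and 2 of wild-type B-2 cells. Per the study's methods, the sort of B-1a cells used low B220 and CD5 among its markers and that of B-2 cells high B220. *Igll1*-/- mice, from a Jackson Laboratory line, lack lambda5, a component of the surrogate light chain. The study calls its repeats of this assay independent experiments, but nothing in the labels says whether both libraries of a group came from separate mice, so each p-value measures only the spread between these libraries, which may be technical.

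A kappa light chain gene is assembled when recombination joins a V gene to 1 of the J genes, and the joint lies inside CDR3, the loop that is most variable and often touches antigen. The V gene supplies the start of CDR3 and the J gene its end, so clonotypes of a single V gene share their first residues. The same allele can rearrange again to a V gene further upstream and a J gene further downstream. Before a mature kappa chain exists, the surrogate light chain pairs with the new heavy chain in the pre-BCR.

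The family members can be told apart by the residues that the V gene gives to CDR3. The most direct joint of each gene to IGKJ5, in which the first 6 residues from the V gene are followed by proline and then by leucine and threonine, shows where they differ.
IGKV1-110: SQSTHVPLT
IGKV1-115: FQGTHLPLT
IGKV1-117: FQGSHVPLT
IGKV1-122: LQVTHVPLT
IGKV1-132: LQGTYYPLT
IGKV1-133: VQGTHFPLT
IGKV1-135: WQGTHFPLT
IGKV1-88: LQGTHQPLT
IGKV1-99: FQSNYLPLT
From IGKV1-110, the CDR3 of IGKV1-122 differs at 2 of 9 residues, those of IGKV1-115, IGKV1-117, IGKV1-133, IGKV1-135 and IGKV1-88 at 3, and those of IGKV1-132 and IGKV1-99 at 4. The joint of IGKV1-115 rested on 13 reads, all in wild-type B-2 replicate 1. IGKV1-35 is not listed. Its start with the most reads, KQSYNL, opens with residues also seen in many IGKV8-21 reads, so its own start was not established.

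In IGKV1-110 itself, 5 clonotypes held the most reads over the 6 libraries, and the results on single clonotypes below turn on them. They share the 6 residues SQSTHV and differ from the eighth residue on, where the J gene or the joint sets the sequence.
IGKV1-110 with IGKJ1: SQSTHVPWT
IGKV1-110 with IGKJ5: SQSTHVPLT
IGKV1-110 with IGKJ2: SQSTHVPYT
IGKV1-110 with IGKJ5, longer by 1 residue: SQSTHVPPLT (10 residues)
IGKV1-110 with IGKJ5, ending in proline and threonine: SQSTHVPPT

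The libraries held 5701 to 8652 clonotypes from 214000 to 288396 reads, with a single read behind 57.7% to 59.2% of them. No molecular barcode marks the original rearrangement, so intervals and floors cover counting error only, and fewer cells with a rearrangement cannot be told apart from less amplification of it. All libraries were primed in the V gene with a degenerate primer plus added primers, and how well each gene is primed was not tested. Libraries of genomic DNA hold no expression of marker genes. The only check of the labels was IGKV4-91, a gene known from B-1a cells, at 6.54% and 6.03% of clonotypes in wild-type B-1a, 2.77% and 3.17% in *Igll1*-/- B-1a and 1.44% and 1.30% in wild-type B-2 libraries. Its share in *Igll1*-/- B-1a cells thus lay between those of the wild-type groups. No pair of libraries in a group agreed within sampling noise over all V genes, so each was counted as a library of its own.

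The family as a whole took a larger share in *Igll1*-/- B-1a cells. Its members made up 10.8% and 12% of clonotypes in wild-type B-1a, 14.0% and 14.6% in *Igll1*-/- B-1a and 11.5% and 11.7% in wild-type B-2 libraries. Both *Igll1*-/- libraries lay above all 4 wild-type libraries. The means were 11.4% ± 0.806, 14.3% ± 0.391 and 11.6% ± 0.135 (SD, n = 2 each), and with 2 libraries against 2 the exact permutation test cannot go below p = 0.333 (two-sided). By reads, the family held 10.2% and 11.8%, 15% and 16.5%, and 14.2% and 13.6% in the same order, so its distance to wild-type B-2 cells was smaller by reads than to wild-type B-1a cells.

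Within the family the gain fell to IGKV1-110. The gene had 296 and 305 clonotypes in wild-type B-1a, 418 and 525 in *Igll1*-/- B-1a and 365 and 369 in wild-type B-2 libraries. As shares of all clonotypes these were 4.09% and 4.38%, 7.33% and 7.56%, and 4.22% and 4.28%. The 95% Wilson intervals of the *Igll1*-/- libraries began at 6.68% and 6.97%, and no wild-type interval reached beyond 4.89%. From wild-type to *Igll1*-/- B-1a cells IGKV1-110 had a log2 fold change of 0.81 (standard error 0.11, adjusted p = 0.00034, edgeR's quasi-likelihood test over 84 *Igkv* genes). The log2 fold change against wild-type B-2 cells was also 0.81 (standard error 0.11, edgeR adjusted p = 0.00047). Between the wild-type groups it was -0.01 (standard error 0.11, edgeR adjusted p = 0.99). Since both *Igll1*-/- comparisons rest on the same libraries, they are not independent. IGKV1-110 alone formed 37.8% and 36.6% of all member clonotypes in wild-type B-1a, 52.3% and 51.9% in *Igll1*-/- B-1a and 36.5% and 36.5% in wild-type B-2 libraries.

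**Figure D1:**
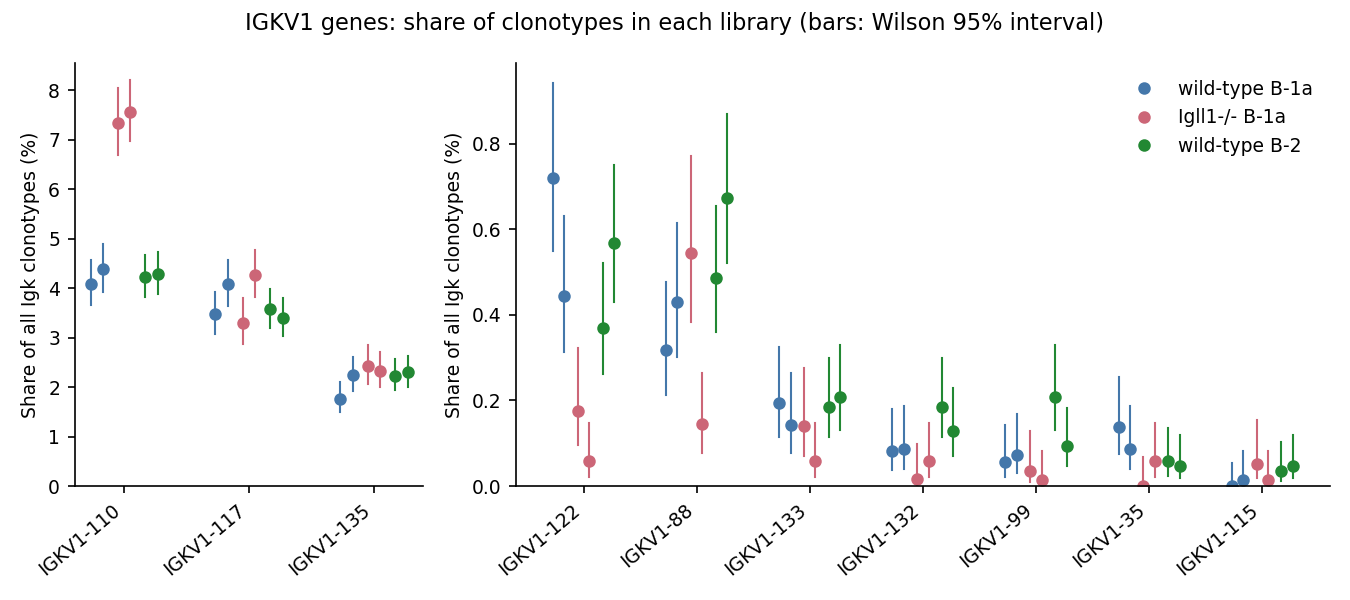
Share of clonotypes (percent of all *Igk* clonotypes of a library, linear axes that differ between panels) for the 10 IGKV1 genes, the 3 frequent ones on the left and the 7 rarer ones on the right. Each point is 1 library, coloured by group, with its 95% Wilson interval as a bar. In the *Igll1*-/- libraries IGKV1-110 sits at 7.33% and 7.56%, clear of the 4.09% to 4.38% of the 4 wild-type libraries, and IGKV1-122 is lowest in the *Igll1*-/- libraries.

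The rise of IGKV1-110 was also present in larger clonotypes. Clonotypes with at least 10 reads numbered 30 and 39 in wild-type B-1a, 59 and 71 in *Igll1*-/- B-1a and 50 and 47 in wild-type B-2 libraries, with a log2 fold change of 1.23 against wild-type B-1a and 1.16 against wild-type B-2 cells. Many clonotypes with few reads lie 1 amino acid substitution away from a clonotype with far more reads. When each clonotype within 1 substitution of one with at least 10 times its reads (same V and J gene) was merged into it, IGKV1-110 kept 78 and 90, 140 and 240, and 115 and 113 clonotypes. The log2 fold changes were then 1.32 (edgeR adjusted p = 0.0021) and 1.05 (edgeR adjusted p = 0.0097). The share that was merged away, 73.6% and 70.5% in wild-type B-1a, 66.5% and 54.3% in *Igll1*-/- B-1a and 68.5% and 69.4% in wild-type B-2 libraries, was lowest in *Igll1*-/- replicate 2.

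By reads, IGKV1-110 held 3.93% and 5.04% in wild-type B-1a, 9.57% and 9.99% in *Igll1*-/- B-1a and 5.46% and 5.59% in wild-type B-2 libraries. An IGKV1-110 clonotype rested on average on 36.5 and 40.5, 49.0 and 52.2, and 43.2 and 43.7 reads. Both measures were highest in the *Igll1*-/- libraries. Counting reads in place of clonotypes, the log2 fold change was 1.12 against wild-type B-1a (edgeR adjusted p = 0.0332) and 0.82 against wild-type B-2 cells (edgeR adjusted p = 0.0759), and the second no longer passed.

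Of the 10 members, 7 had at least 10 clonotypes in at least 2 libraries and were tested. In *Igll1*-/- against wild-type B-1a cells, 2 of the 7 passed at an edgeR adjusted p under 0.05, where 17.9% of all 84 *Igkv* genes passed. IGKV1-110 was the higher one, where 8.33% of all genes were called higher, and IGKV1-122 the lower one, where 9.52% were called lower. DESeq2 called 2 members in this comparison, where it called 19.7% of the genes it gave an adjusted p. Against wild-type B-2 cells edgeR called these 2 members again, where 22.6% of all genes passed, 7.14% higher and 15.5% lower, and DESeq2 called 1 member, where 21.1% of genes passed. Between the wild-type groups 0 of 7 passed by edgeR, where 3.57% of all genes did (3.57% higher and 0.0% lower), with 0 members at an unadjusted p under 0.05 and 0 by DESeq2, where 4.76% of genes passed. The median log2 fold change over the 7 members was -0.15, -0.78 and -0.18 in these comparisons, beside -0.17, -0.49 and -0.23 over all genes tested. In *Igll1*-/- against wild-type B-1a cells the shares of 5 of the 7 members did not overlap between groups, 2 higher and 3 lower, where this held for 51.2% of all genes, 20.2% higher and 31.0% lower. It was also 2 higher and 3 lower against wild-type B-2 cells, where it held for 69.0% of all genes, 15.5% higher and 53.6% lower. Between the wild-type groups 2 members did not overlap, both lower in B-1a cells, where this held for 56.0% of all genes, 13.1% higher and 42.9% lower. IGKV1-132 was among the lower members in both comparisons with wild-type B-2 cells, and it reached 10 clonotypes only in the wild-type B-2 libraries.

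**Figure D2:**
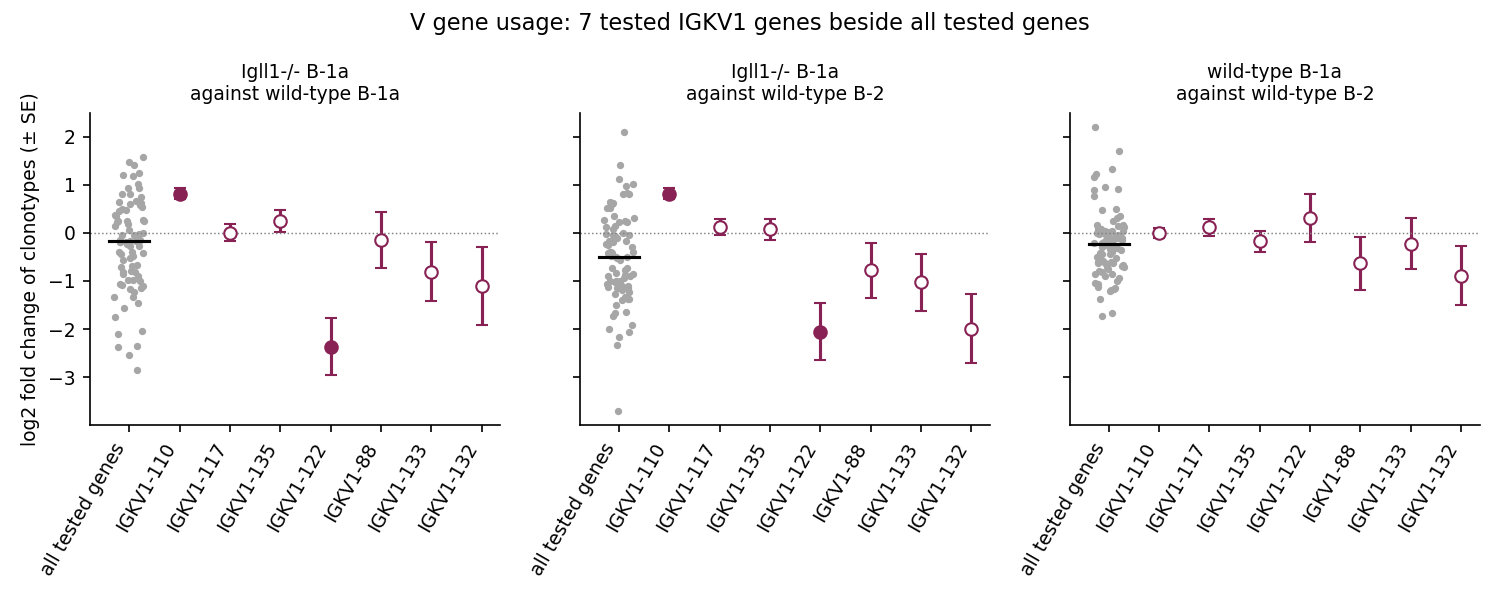
Log2 fold change of clonotype counts (y axis) in 3 panels, 1 per comparison. Grey points are all tested *Igkv* genes with a black line at their median, and purple circles are the 7 tested IGKV1 genes with bars of 1 standard error, filled where the edgeR adjusted p is under 0.05. IGKV1-110 is filled at 0.81 in both *Igll1*-/- panels and open at -0.01 in the wild-type panel, and IGKV1-122 is filled at -2.37 and -2.05.

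IGKV1-122, the closest member in CDR3 residues, moved the other way. It had 52 and 31 clonotypes in wild-type B-1a, 10 and 4 in *Igll1*-/- B-1a and 32 and 49 in wild-type B-2 libraries. Both *Igll1*-/- libraries were below all wild-type libraries. Its log2 fold change was -2.37 against wild-type B-1a (standard error 0.59, edgeR adjusted p = 0.0195) and -2.05 against wild-type B-2 cells (standard error 0.59, edgeR adjusted p = 0.0319). These calls rest on few clonotypes. Without wild-type B-1a replicate 1 or replicate 2, the log2 fold change against wild-type B-1a cells was -1.98 (edgeR adjusted p = 0.168) or -2.67 (edgeR adjusted p = 0.0655). The call against wild-type B-2 cells was lost without any 1 library except *Igll1*-/- replicate 1, at -1.42 to -2.33, and under TMM normalization (-1.59, edgeR adjusted p = 0.112).

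IGKV1-117 and IGKV1-135, the other members in frequent use, showed no called change. IGKV1-117 had 251 and 284 clonotypes in wild-type B-1a, 188 and 296 in *Igll1*-/- B-1a and 309 and 292 in wild-type B-2 libraries. Its log2 fold change against wild-type B-1a cells was 0.00 (standard error 0.17), and the *Igll1*-/- libraries lay on both sides of the wild-type values. By reads IGKV1-117 was ahead of IGKV1-110 in wild-type B-1a replicate 1 (4.33% against 3.93%) and wild-type B-2 replicate 1 (5.75% against 5.46%). After merging near-identical clonotypes it was also ahead in the wild-type B-1a libraries, with 86 and 123 clonotypes against 78 and 90. IGKV1-135 had 128 and 156, 138 and 162, and 193 and 198 clonotypes, with log2 fold changes of 0.25 (standard error 0.22) against wild-type B-1a and 0.07 (standard error 0.22) against wild-type B-2 cells. As percent of clonotypes IGKV1-135 held 1.77% and 2.24%, 2.42% and 2.33%, and 2.23% and 2.30%, so only wild-type B-1a replicate 1 stood below the rest.

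Of the rarer members that were tested, IGKV1-88, IGKV1-133 and IGKV1-132, 0 of 3 passed the edgeR test in any comparison. IGKV1-88 had 23 and 30 clonotypes in wild-type B-1a, 31 and 10 in *Igll1*-/- B-1a and 42 and 58 in wild-type B-2 libraries. IGKV1-133 had 14 and 10, 8 and 4, and 16 and 18 clonotypes, with the *Igll1*-/- libraries lowest. IGKV1-132 had 6 and 6, 1 and 4, and 16 and 11 clonotypes. Its log2 fold change against wild-type B-2 cells was -2.0 (standard error 0.72, edgeR adjusted p = 0.069). IGKV1-132 reached the 10 clonotypes needed for testing only in the wild-type B-2 libraries, which favours a lower value against that group in every fit. Without 1 library some of these missed calls were made against wild-type B-2 cells: without *Igll1*-/- replicate 1, IGKV1-88 (log2 fold change -2.01, edgeR adjusted p = 0.0152) and IGKV1-133 (-1.77, edgeR adjusted p = 0.022), and without *Igll1*-/- replicate 2, IGKV1-132 (-3.16, edgeR adjusted p = 0.0072).

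The 3 members that were too rare to test differ in what their rows are. IGKV1-99 had 4 and 5 clonotypes in wild-type B-1a, 2 and 1 in *Igll1*-/- B-1a and 18 and 8 in wild-type B-2 libraries. The single clonotype in *Igll1*-/- replicate 2, LQYDEFPLT, does not carry the FQSNYL start and had an identity of 85.7% to the germline gene. IGKV1-115 had 12 clonotypes over all libraries with 151 reads, and all were productive, although RefSeq lists it as a V segment pseudogene. In each library where it occurred, 0.0% of its reads lay in clonotypes with 100% identity to the germline gene. The median identity was 94.29% to 97.85%, and whether its reads come from another gene was not tested. IGKV1-35 had 29 clonotypes with 40 reads, of which 26 rested on 1 read, at a median identity of 86.7%. Of the 29, 11 started with KQSYN, the start seen in 25129 reads of IGKV8-21, and 6 started with MQHLEYP, the start seen in 5857 reads of IGKV2-137.

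In RefSeq's GRCm38.p6 table all 10 members lie on chromosome 6 and were matched by symbol, and counted from the distal end of 162 *Igkv* genes IGKV1-135 is at place 3, IGKV1-133 at 6, IGKV1-132 at 7, IGKV1-122 at 18, IGKV1-117 at 25, IGKV1-115 at 27, IGKV1-110 at 32, IGKV1-99 at 45, IGKV1-88 at 60 and IGKV1-35 at 126. The gene that rose thus lies between IGKV1-115 and IGKV1-99, which were too rare to test, and on the proximal side of the gene that fell. Of the 4 nearest tested neighbours of IGKV1-110, IGKV14-111 rose from wild-type to *Igll1*-/- B-1a cells (by 0.81 on the log2 scale with a standard error of 0.22, edgeR adjusted p = 0.0264) and at -0.01 against wild-type B-2 cells. IGKV2-112, IGKV2-109 and IGKV16-104 had log2 fold changes of -0.17, -0.17 and 0.24 against wild-type B-1a cells, none of them called by edgeR.

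Over the 6 libraries, the pattern most like that of IGKV1-110 among 77 tested genes outside the family belonged to IGKV15-103, IGKV4-53 and IGKV4-86, with Pearson's r of the log2 share of 0.973, 0.968 and 0.950. These r describe the same 6 libraries, which share their totals. IGKV15-103 held 1.87% and 1.97% of clonotypes in wild-type B-1a, 6.03% and 4.57% in *Igll1*-/- B-1a and 2.13% and 1.85% in wild-type B-2 libraries. Both *Igll1*-/- libraries were above all wild-type libraries, which is no further likeness, since the gene was picked by this pattern. On the locus IGKV15-103 lies between IGKV1-110 and IGKV1-99.

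A clonotype is productive when its rearrangement is in frame and free of stop codons, so that a chain can be made from it. For IGKV1-110, 97.0% and 96.4% of clonotypes were productive in wild-type B-1a, 94.5% and 93.3% in *Igll1*-/- B-1a and 94.8% and 95.9% in wild-type B-2 libraries. The gene stood above the share over all clonotypes, which lay between 86.4% and 88.6%, in every library. These shares count each near-identical variant of a large clonotype. Merging such variants removed 54.3% to 73.6% of IGKV1-110 clonotypes and 54.2% to 58.6% of all clonotypes per library. The productive share after merging is not given here. Both *Igll1*-/- libraries were lowest for IGKV1-110. Their difference to wild-type B-1a cells, tested as the ratio of productive to unproductive clonotypes against that of all clonotypes, was -0.96 on the log2 scale (standard error 0.49, edgeR adjusted p = 0.51). In that test 0 of 7 members passed in each of the 3 comparisons by edgeR, where 0.0%, 0.0% and 1.19% of genes did, with 1, 0 and 0 members at an unadjusted p under 0.05. DESeq2 was not run on this ratio.

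The unproductive IGKV1-110 clonotypes were few and small. They numbered 9 and 11 in wild-type B-1a, 23 and 35 in *Igll1*-/- B-1a and 19 and 15 in wild-type B-2 libraries. Together these 112 clonotypes held 291 reads, 93 of them carried a stop codon, and 73 were 1 substitution from a clonotype of the same V and J gene that had 10 or more times as many reads. How far sequencing errors contribute to them was not tested. Restricted to unproductive clonotypes, IGKV1-110 had a log2 fold change of 1.73 against wild-type B-1a (edgeR adjusted p = 0.0226) and of 1.04 against wild-type B-2 cells (edgeR adjusted p = 0.107). Restricted to productive clonotypes the values were 0.77 and 0.81, both called.

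For IGKV1-117 the productive share was 88% and 85.2% in wild-type B-1a, 93.6% and 87.2% in *Igll1*-/- B-1a and 91.6% and 89.4% in wild-type B-2 libraries. For IGKV1-135 it was 93.8% and 89.7%, 91.3% and 93.2%, and 91.2% and 88.4%. IGKV1-135 values of *Igll1*-/- cells lay inside the range of wild-type B-1a cells, and for IGKV1-117 *Igll1*-/- replicate 2 fell within the wild-type B-1a range.

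**Figure D3:**
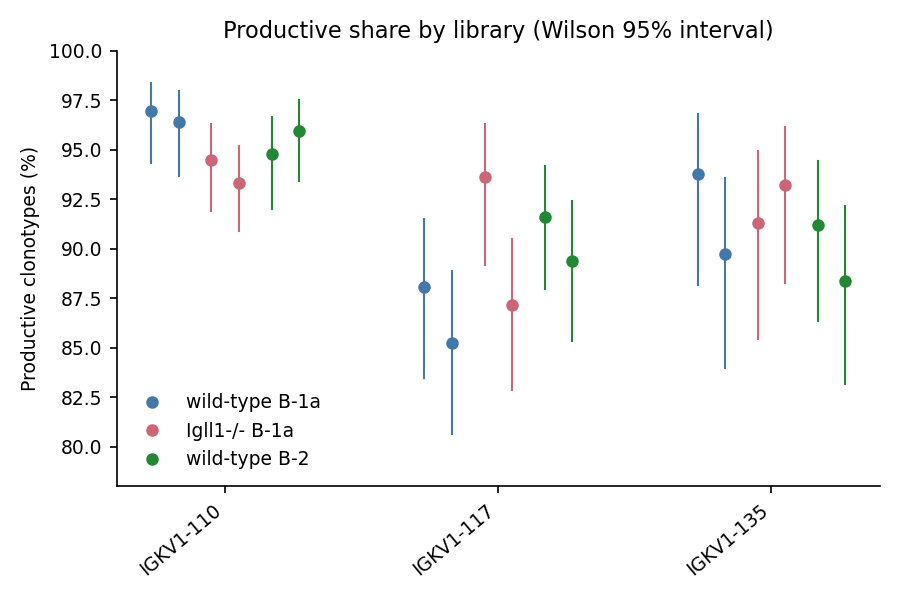
Productive share (percent of clonotypes, y axis from 78 to 100) of IGKV1-110, IGKV1-117 and IGKV1-135. Each point is 1 library, coloured by group, with its 95% Wilson interval as a bar. IGKV1-110 lies between 93.3% and 97.0% with its 2 lowest points in the *Igll1*-/- libraries, and the intervals of its groups overlap.

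The J genes differ in place: IGKJ1 is nearest to the V genes and IGKJ5 farthest, and IGKJ3 is not functional. Of IGKV1-110 clonotypes, IGKJ1 took 33.2% and 30.2% in wild-type B-1a, 36.8% and 49.2% in *Igll1*-/- B-1a and 29.7% and 32.2% in wild-type B-2 libraries. IGKJ5 took 43.4% and 40%, 32.5% and 32.4%, and 41.8% and 38.2%. By clonotypes IGKJ1 thus came ahead of IGKJ5 in both *Igll1*-/- libraries, and IGKJ5 came first in each wild-type library. The IGKJ1 share averaged 31.7% ± 2.16, 43.0% ± 8.76 and 31.0% ± 1.82 (SD, n = 2 each), with an exact permutation p = 0.333 for *Igll1*-/- against either wild-type group, the smallest that 2 against 2 allows. The size of the difference came mostly from *Igll1*-/- replicate 2. IGKJ2 took 22.4% and 28.5%, 26.3% and 17.7%, and 27.2% and 27.9%, and IGKJ4 took 0.573% to 4.07% over the libraries, highest in *Igll1*-/- replicate 1.

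Over all *Igkv* genes outside IGKV1, IGKJ1 held 22.4% and 18.8% of clonotypes in wild-type B-1a, 23.9% and 26.6% in *Igll1*-/- B-1a and 24.3% and 26.0% in wild-type B-2 libraries. Here too both *Igll1*-/- libraries were above both wild-type B-1a libraries, while they overlapped the wild-type B-2 libraries. IGKV1-110 was above these shares in every library. By reads its IGKJ1 share was 35.5% and 29.6%, 36.6% and 61.0%, and 27.4% and 26.8%, and the value of 61.0% belonged to *Igll1*-/- replicate 2. In *Igll1*-/- replicate 1 IGKJ5 still led by reads, at 41.1%.

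IGKJ1 took 27.2% and 28.9% of IGKV1-117 clonotypes in wild-type B-1a, 35.6% and 37.5% in *Igll1*-/- B-1a and 33.3% and 38.7% in wild-type B-2 libraries, so both *Igll1*-/- libraries were above wild-type B-1a cells and inside the range of wild-type B-2 cells. For IGKV1-135 the IGKJ1 share was 35.9% and 35.9%, 29.7% and 38.9%, and 33.7% and 38.9%, with overlapping groups. Whether these genes differ in the change of J use was not tested.

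**Figure D4:**
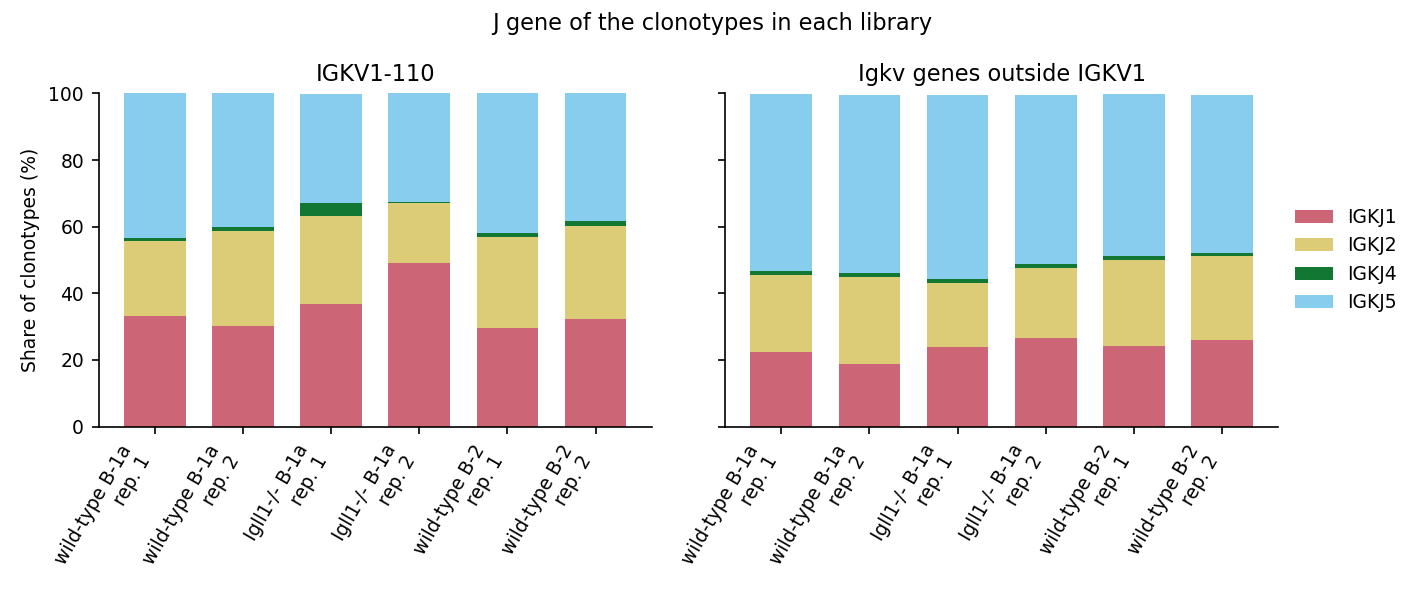
Stacked bars of J gene use (percent of clonotypes, y axis) in each library, for IGKV1-110 on the left and for *Igkv* genes outside IGKV1 on the right; IGKJ3 and clonotypes with several J genes are not drawn. On the left the IGKJ1 part is 36.8% and 49.2% for *Igll1*-/- cells, above the 29.7% to 33.2% of the wild-type libraries. On the right it lies between 18.8% and 26.6%, with means of 20.6% in wild-type B-1a, 25.3% in *Igll1*-/- B-1a and 25.2% in wild-type B-2 libraries.

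Tested as V-J pairs, IGKV1-110 with IGKJ1 had 98 and 92 clonotypes in wild-type B-1a, 154 and 258 in *Igll1*-/- B-1a and 108 and 119 in wild-type B-2 libraries. Its log2 fold change in *Igll1*-/- cells was 1.26 against wild-type B-1a (standard error 0.25, edgeR adjusted p = 0.0088) and 1.29 against wild-type B-2 cells (standard error 0.25, edgeR adjusted p = 0.0114). The pairs with IGKJ2 and IGKJ5 were also higher in the fit, at 0.59 and 0.46 against wild-type B-1a and 0.48 and 0.51 against wild-type B-2 cells, and neither was called. A test of whether IGKJ1 rose more than the other J genes of IGKV1-110 was not run beyond the exact test of its share. Without *Igll1*-/- replicate 2, the pair with IGKJ1 was at 1.01 against wild-type B-1a (edgeR adjusted p = 0.0048) and 1.04 against wild-type B-2 cells (edgeR adjusted p = 0.0062). The call against wild-type B-1a cells was lost without wild-type B-1a replicate 1 (edgeR adjusted p = 0.156) or replicate 2 (0.141). That against wild-type B-2 cells was lost without wild-type B-1a replicate 1 (edgeR adjusted p = 0.064) or 2 (0.0727) and without wild-type B-2 replicate 1 (0.181) or 2 (0.105).

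Of 15 member pairs among 202 tested, 2 passed by edgeR against wild-type B-1a cells, where 10.4% of all pairs did (3.47% higher and 6.93% lower), and 2 against wild-type B-2 cells, where 12.4% did (4.46% higher and 7.92% lower). In each comparison 1 member pair was higher and 1 lower. The second pair differed between these comparisons. IGKV1-122 with IGKJ5 had 31 and 18 clonotypes in wild-type B-1a, 2 and 2 in *Igll1*-/- B-1a and 6 and 15 in wild-type B-2 libraries, a log2 fold change of -3.44 against wild-type B-1a (edgeR adjusted p = 0.0104) and -1.94 against wild-type B-2 cells (edgeR adjusted p = 0.123). IGKV1-122 with IGKJ1 had 6 and 6, 4 and 1, and 16 and 22 clonotypes. Its log2 fold change was -2.46 against wild-type B-2 (edgeR adjusted p = 0.0336) and -1.08 against wild-type B-1a cells. This pair reached the 10 clonotypes needed for testing only in the wild-type B-2 libraries. It was thus tested through the group where it was high, which favours a lower value against that group. Clonotypes of IGKV1-122 with IGKJ5 were most numerous in wild-type B-1a libraries and those with IGKJ1 in wild-type B-2 libraries, a difference between the wild-type groups that did not pass.

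Between the wild-type groups 0 of 15 member pairs passed by edgeR, where 2.97% of all pairs did (2.48% higher and 0.495% lower), with 2 members at an unadjusted p under 0.05. DESeq2 was not run on pairs. The 2 calls against wild-type B-1a cells fell to 0 without wild-type B-1a replicate 1 or replicate 2 and rose to 3 without either *Igll1*-/- library. Those against wild-type B-2 cells fell to 0 without any 1 of the 4 wild-type libraries and rose to 4 without *Igll1*-/- replicate 1. The log2 fold change of IGKV1-110 with IGKJ1 ranged from 1.01 to 1.47 and from 1.04 to 1.5 over these fits. Without either wild-type B-2 library, IGKV1-122 with IGKJ1 had too few clonotypes to be tested, so its call left those fits untested.

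CDR3 of IGKV1-110 was dominated by the residues from the V gene. Reads that began with SQSTHV made up 93.7% to 96.0% of the gene's reads in a library. Those with a CDR3 of 9 residues made up 75.6% and 74.1% in wild-type B-1a, 80.3% and 80.5% in *Igll1*-/- B-1a and 74.5% and 76.3% in wild-type B-2 libraries. A direct joint, SQSTHV followed by proline and by the 2 residues that begin a J gene (tryptophan-threonine for IGKJ1, tyrosine-threonine for IGKJ2, phenylalanine-threonine for IGKJ4, leucine-threonine for IGKJ5), was found in 56.3% and 56.9%, 69.1% and 62.8%, and 54.1% and 56.5% of reads. Both shares were highest in the *Igll1*-/- libraries, with means of 80.4% ± 0.126 against 74.8% ± 1.07 in wild-type B-1a for 9 residues and 65.9% ± 4.41 against 56.6% ± 0.435 for direct joints (SD, n = 2 each; exact permutation p = 0.333, two-sided). CDR3s of 8 residues held 8.63% and 11.9%, 6.18% and 2.33%, and 10.6% and 7.34% of reads, lowest in the *Igll1*-/- libraries.

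Direct joints held larger shares of the reads of some other members in *Igll1*-/- libraries too. For IGKV1-135 they made up 48.7% and 48.6% of reads in wild-type B-1a, 62.4% and 51.9% in *Igll1*-/- B-1a and 47.8% and 47.1% in wild-type B-2 libraries. For IGKV1-88 the shares were 63.0% and 66.3%, 90.0% and 96.4%, and 60.4% and 61.5%, and for IGKV1-122 55.9% and 56.3%, 84.4% and 99.3%, and 42.5% and 57.0%. In these 3 members both *Igll1*-/- libraries were above all wild-type libraries, with 109 and 139 reads of IGKV1-122 behind its *Igll1*-/- values. Direct joints and CDR3 lengths of *Igkv* genes outside IGKV1 were not counted, so whether these differences are particular to the family is not known. LQGTHQPYT alone held 76.1% of IGKV1-88 reads in *Igll1*-/- replicate 1, and LQVTHVPLT 80.6% of IGKV1-122 reads in replicate 2. In the still rarer IGKV1-133, IGKV1-132 and IGKV1-99 the *Igll1*-/- libraries did not lie together above the wild-type libraries. From wild-type to *Igll1*-/- B-1a libraries, IGKV1-133 went from 93.8% and 80.2% to 55.7% and 81.0%. IGKV1-132 went from 64.8% and 72.5% to 0.0% and 97.3%, and IGKV1-99 from 66.7% and 82.9% to 97.8% and 0.0%. The 0.0% of IGKV1-132 rests on 2 reads and that of IGKV1-99 on a single clonotype, so these values do not decide whether direct joints rose. For IGKV1-117 direct joints overlapped between groups, at 59.7% and 71.9%, 75.0% and 66.1%, and 68.4% and 69.3%, while its 9-residue reads, at 93.3% and 93.1% in *Igll1*-/- libraries, were above the 89.7% to 92.0% of the wild-type libraries.

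The eighth residue shows which joint carried the reads. Among 9-residue CDR3s that begin with SQSTHV and proline, tryptophan took 28.8% and 24.6% of reads in wild-type B-1a, 31.5% and 60.1% in *Igll1*-/- B-1a and 18.3% and 16.1% in wild-type B-2 libraries. Leucine took 29.9% and 35.9%, 46.1% and 16.8%, and 37.7% and 38.2%. The *Igll1*-/- libraries thus differed from each other: leucine led in replicate 1 and tryptophan in replicate 2. Tyrosine, at 20.5% and 21.2%, 11.1% and 8.5%, and 23.0% and 24.3%, was lowest in both *Igll1*-/- libraries.

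Single clonotypes show the same difference between the *Igll1*-/- libraries. SQSTHVPWT with IGKJ1 held 2199 and 2092 reads in wild-type B-1a, 4817 and 12088 in *Igll1*-/- B-1a and 1963 and 1859 in wild-type B-2 libraries, which was 0.799% and 0.854%, 2.25% and 4.41%, and 0.681% and 0.645% of all reads. SQSTHVPLT with IGKJ5 held 0.832% and 1.25%, 3.30% and 1.23%, and 1.40% and 1.53% of all reads. SQSTHVPWT was above all wild-type libraries in both *Igll1*-/- libraries, and SQSTHVPLT only in replicate 1. The largest IGKV1-110 clonotype was SQSTHVPLT in 5 libraries and SQSTHVPWT in *Igll1*-/- replicate 2, where SQSTHVPWT alone formed 44.1% of the gene's reads.

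The other leading clonotypes were not above all wild-type libraries in both *Igll1*-/- libraries. SQSTHVPYT with IGKJ2 held 0.571% and 0.743% of all reads in wild-type B-1a, 0.797% and 0.629% in *Igll1*-/- B-1a and 0.859% and 0.971% in wild-type B-2 libraries, so the *Igll1*-/- libraries overlapped wild-type B-1a cells and lay below wild-type B-2 cells. SQSTHVPPLT with IGKJ5 held 0.387% and 0.397%, 0.115% and 1.10%, and 0.431% and 0.481% of all reads, and the *Igll1*-/- libraries were the lowest and the highest of the 6. SQSTHVPPT with IGKJ5 held 0.176% and 0.262%, 0.0294% and 0.239%, and 0.276% and 0.311%, with *Igll1*-/- replicate 1 lowest.

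**Figure D5:**
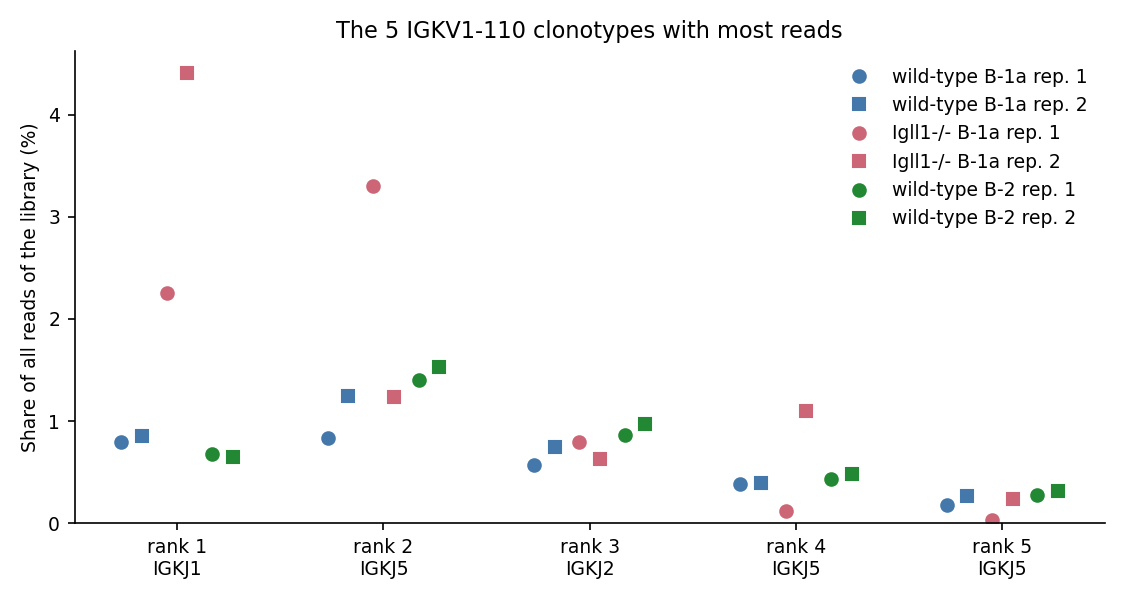
Share of all reads of a library (percent, y axis) for the 5 IGKV1-110 clonotypes with the most reads, by rank and J gene, in the order in which they were listed above. Colours are groups, circles are replicate 1 and squares replicate 2. Rank 1, SQSTHVPWT, is at 2.25% and 4.41% in the *Igll1*-/- B-1a libraries against 0.645% to 0.854% in the wild-type libraries, and rank 2, SQSTHVPLT, is at 3.30% and 1.23% in the *Igll1*-/- libraries.

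Removing the leading clonotypes left IGKV1-110 higher in *Igll1*-/- cells. Without SQSTHVPWT the gene held 3.13% and 4.19% of reads in wild-type B-1a, 7.32% and 5.58% in *Igll1*-/- B-1a and 4.78% and 4.94% in wild-type B-2 libraries. Without SQSTHVPWT and SQSTHVPLT it held 2.30% and 2.94%, 4.02% and 4.35%, and 3.38% and 3.41%. In both cases the *Igll1*-/- libraries were above all 4 wild-type libraries.

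Among 1323 clonotypes tested on reads, 163 belonged to members. By edgeR 0 of the 163 passed in each of the 3 comparisons, where 0.0756%, 0.0% and 0.0756% of all clonotypes did, with 14, 26 and 8 members at an unadjusted p under 0.05. By DESeq2 9, 14 and 0 passed, where 14.8%, 18.0% and 4.95% of all clonotypes with an adjusted p did. The median log2 fold change over the member clonotypes was 0.08, -0.74 and -0.43, beside -0.85, -1.57 and -0.57 over all clonotypes tested. SQSTHVPWT had a log2 fold change of 2.01 against wild-type B-1a cells (standard error 0.47, edgeR adjusted p = 0.128; DESeq2 2.17, adjusted p = 0.0426). It was at 2.33 against wild-type B-2 cells (standard error 0.47, edgeR adjusted p = 0.115; DESeq2 3.04, adjusted p = 0.0025). SQSTHVPLT was at 1.12 and 0.63, with edgeR adjusted p-values of 0.27 and 0.469.

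The DESeq2 calls against wild-type B-1a cells comprised 2 higher and 7 lower clonotypes, and those against wild-type B-2 cells 7 of each. The 7 higher ones in the second comparison were all of IGKV1-110 with IGKJ1, namely SQSTHVPWT and 6 CDR3s that differ from it by 1 substitution, such as PQSTHVPWT and SQGTHVPWT. These 6 have far fewer reads than SQSTHVPWT, and whether they are separate rearrangements was not tested.

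Some clonotypes of the rarer members had few or 0 reads in the *Igll1*-/- libraries. LQVTHVPPT, of IGKV1-122 with IGKJ5, had 281 and 108 reads in wild-type B-1a, 0 and 0 in *Igll1*-/- B-1a and 84 and 76 in wild-type B-2 libraries. Against a floor of 3 reads over the 488339 reads of that group it was at least 119-fold lower than in wild-type B-1a and at least 45.2-fold lower than in wild-type B-2 cells. The first bound was 71.7-fold without wild-type B-1a replicate 1, and without *Igll1*-/- replicate 1 or 2 the bounds were 66.9-fold or 52.2-fold and 25.4-fold or 19.8-fold. LQGTYYPLT, of IGKV1-132 with IGKJ5, had 50 and 31 reads in wild-type B-1a, 0 and 0 in *Igll1*-/- B-1a and 48 and 47 in wild-type B-2 libraries, which made it at least 25.1-fold and at least 26.8-fold lower. Without *Igll1*-/- replicate 1 or 2 these bounds were 14.1-fold or 11.0-fold and 15.1-fold or 11.7-fold. They do not hold for IGKV1-132 as a gene. Its clonotype LQGTYYPWT with IGKJ1 had 6 and 0 reads in wild-type B-1a, 0 and 107 in *Igll1*-/- B-1a and 5 and 5 in wild-type B-2 libraries. IGKV1-132 held 0.0331% and 0.0208%, 0.000935% and 0.0401%, and 0.0475% and 0.0430% of all reads in the same order. VQGTHFPLT, of IGKV1-133 with IGKJ5, had 328 and 74, 8 and 3, and 73 and 81 reads. LQVTHVPPT, LQGTYYPLT and VQGTHFPLT were among the DESeq2 calls against wild-type B-1a cells, and none of them passed by edgeR.

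The direct IGKJ5 joint of IGKV1-122 was not missing. LQVTHVPLT had 383 and 180 reads in wild-type B-1a, 4 and 112 in *Igll1*-/- B-1a and 33 and 133 in wild-type B-2 libraries. Its count in *Igll1*-/- replicate 2 was above that in wild-type B-2 replicate 1. FQGSHVPLT, the direct IGKJ5 joint of IGKV1-117, had 3719 and 3203, 2181 and 2160, and 5794 and 4669 reads, and was lowest in the *Igll1*-/- libraries, also as a share of all reads (1.02% and 0.787% against 1.31% to 2.01%). WQGTHFPLT, that of IGKV1-135, held 0.385% and 0.433%, 0.556% and 0.310%, and 0.553% and 0.486% of all reads, and its *Igll1*-/- libraries were the highest and the lowest of the 6.

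Most IGKV1-110 reads came from clonotypes common to all libraries. Of 1176 distinct combinations of J gene and CDR3, 784 occurred in 1 library and 85 in all 6. These 85 held 96.1% and 95.7% of the gene's reads in wild-type B-1a, 88.2% and 95.1% in *Igll1*-/- B-1a and 91.8% and 94.9% in wild-type B-2 libraries. *Igll1*-/- replicate 1 had the largest part outside them. Found in both libraries of a group and in no other were 5 in wild-type B-1a, 18 in *Igll1*-/- B-1a and 5 in wild-type B-2 cells. For IGKV1-117 the same counts were 6, 4 and 12, and for IGKV1-135 4, 2 and 11, so the *Igll1*-/- count was the largest for IGKV1-110 and the smallest for the other 2 genes. Over all members the counts were 21, 24 and 42, and those over all *Igkv* genes were not taken. These counts grow with the number of clonotypes of a gene, and no test of them was run. How many of these clonotypes lie 1 substitution from a larger one was not tested.

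Reads matched the germline gene closely. Between 92.2% and 94.8% of IGKV1-110 reads lay in clonotypes with an identity of 100% to the germline V gene. In the table the authors also give the alleles, and 50 of 2278 IGKV1-110 clonotypes, with 149 reads, listed an allele of IGKV1-117 beside those of IGKV1-110. Assignment between these genes is uncertain for those clonotypes. A further 2 to 14 clonotypes per library were listed with several V genes of which a member was one, and these were counted to no gene.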

How the data were processed

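Rearranged *Igk* was measured in 6 libraries, 2 per group, with groups taken from the sample labels. The authors amplified genomic DNA with V and J primers, kept products of 100 to 280 bp, sequenced them (the labels name a MiSeq, the methods another instrument) and assigned reads with IMGT/High-V-QUEST; its version is not given in the sources used here. They deposited, per library, the count of reads of each clonotype, its percent identity to the germline V gene and its read length, which were used as deposited. The 4 *Igh* libraries were not used here.

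From these tables, clonotypes per V gene and per V-J pair, and reads per clonotype, were compared with edgeR 4.0.16 in R 4.3.3 (quasi-likelihood test, 3 groups in 1 fit, library size the total of the library, features with at least 10 in at least 2 libraries, Benjamini-Hochberg adjustment over all features tested, threshold 0.05). DESeq2 1.42.0 was an alternative, and the fitting steps were tested on simulated data. Named were all 10 members, their tested V-J pairs, the clonotype with the most reads per member and library, the 5 leading IGKV1-110 clonotypes, called clonotypes, and the 3 genes most like IGKV1-110 (Pearson's r of log2 share with 0.5 added to counts). Other clonotypes named, the removal of leading clonotypes and the neighbours of IGKV1-110 were chosen after their values were seen. Members and lists were chosen with earlier results of these data known. Single values per library were compared with exact permutation tests. Libraries held 5701 to 8652 clonotypes, so 3 clonotypes correspond to 0.0347% to 0.0526% of a library.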

Additional observations from a re-analysis of the deposited data

How the results depend on the processing

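Total-based scaling sets all shares against each other: TMM normalization moved the median log2 fold change of all genes by 0.26, 0.46 and 0.20 in the comparisons of *Igll1*-/- with wild-type B-1a, of *Igll1*-/- with wild-type B-2 and of wild-type B-1a with wild-type B-2 cells, and DESeq2 by 0.24, 0.53 and 0.30. Of all genes called, 7 of 15 and 6 of 19 were higher in the first and second comparison, 10 of 16 and 7 of 8 under TMM, and 8 of 14 and 8 of 8 by DESeq2. IGKV1-110 was then at 1.07 and 1.27 (TMM) or 1.05 and 1.35 (DESeq2), called each time. Between the wild-type groups its value turned sign, to 0.20 under TMM, 0.29 by DESeq2 and 0.044 for productive clonotypes. Against wild-type B-2 cells IGKV1-110 was not called by reads (0.82) or among unproductive clonotypes (1.04). Its call held in all 6 fits that left out 1 library, at 0.77 to 0.86 and 0.79 to 0.83, with -0.055 to 0.043 between the wild-type groups.

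Of the tested members, 1 was called against wild-type B-1a cells among unproductive clonotypes. Against wild-type B-2 cells 1 was called under TMM, by reads and with at least 10 reads per clonotype, and 0 among unproductive clonotypes. With no filter, with at least 2 reads (IGKV1-88 added), for productive clonotypes (IGKV1-132 added) and after merging (IGKV1-88 added), 3 were called. IGKV1-132 reached 10 productive clonotypes only in the wild-type B-2 libraries. Leaving out 1 library gave 1 to 2, 1 to 4 and 0 to 0 members in the 3 comparisons, with 1 against wild-type B-1a cells without either wild-type B-1a library, and against wild-type B-2 cells 4 without *Igll1*-/- replicate 1 and 1 without any 1 wild-type library. Member V-J pairs called fell against wild-type B-1a cells to 1 with at least 2 reads and 0 by reads, and against wild-type B-2 cells to 1 with no filter, by reads and with the replicate block. Leaving out 1 library gave 0 to 3 and 0 to 4 pairs. DESeq2 called 9 and 14 member clonotypes where edgeR called 0, and leaving out 1 library gave 0 to 1 and 0 to 1 by edgeR. The cause was not tested.

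Uncalled values of members changed sign as follows. Against wild-type B-1a cells these were IGKV1-117 at -0.00025 (library size from single-V clonotypes), -0.14 (reads), -0.042 (at least 2 reads), -0.031 (at least 10), -0.37 (unproductive), -0.020 (several V genes counted), -0.26 (merged) and -0.00040 (block), IGKV1-133 at 0.016 (at least 2 reads), and IGKV1-88 at 0.11 (TMM) and 0.14 (DESeq2). Against wild-type B-2 cells these were IGKV1-117 at -0.42 (reads), -0.045 (at least 10 reads) and -0.086 (merged), and IGKV1-135 at -0.41 (reads), -0.28 (at least 2 reads), -0.036 (at least 10) and -0.51 (unproductive). Between the wild-type groups these were IGKV1-117 at -0.28 (reads) and -0.014 (at least 10 reads), IGKV1-122 at -0.28 (merged), IGKV1-133 at 0.072 (DESeq2) and IGKV1-135 at 0.026 (TMM) and 0.12 (DESeq2). The productive ratio of IGKV1-110 turned to 0.082 (merged) against wild-type B-2 cells and to -1.16 (at least 2 reads) and -0.046 (at least 10) between the wild-type groups. SQSTHVPYT turned to 0.43 (TMM) and 0.36 (DESeq2) and SQSTHVPPLT to -0.038 (block) against wild-type B-2 cells.

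Without 1 library, values that turned sign lay at -0.19 to 0.18 (IGKV1-117 against wild-type B-1a), -0.078 to 0.29 (IGKV1-117 against wild-type B-2), -0.0046 to 0.23 (IGKV1-117 between the wild-type groups), -0.076 to 0.66 (IGKV1-122 between them), -1.38 to 0.54 (IGKV1-88 against wild-type B-1a), -0.063 to 0.32 (SQSTHVPYT) and -2.89 to 0.13 (SQSTHVPPT, both against wild-type B-1a). SQSTHVPLT against wild-type B-2 cells lay at -0.25 to 1.17, and SQSTHVPPLT at -1.76 to 1.49 and -1.98 to 1.27.

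The family's difference in percent of clonotypes, 2.88, 2.65 and -0.23 as reported, was 4.70, 1.86 and -2.84 by reads. With at least 2 reads it was 1.86 against wild-type B-2 cells, and with at least 10 reads 4.14 against wild-type B-1a cells and -1.58 between the wild-type groups. It was 1.43 and 0.93 for unproductive clonotypes, and after merging 1.90 against wild-type B-2 cells and -1.15 between the wild-type groups. Leaving out 1 library, chosen after seeing the data, gave 2.31 to 3.45, 2.37 to 2.93 and -0.80 to 0.34.

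Replicate numbers were not used to pair libraries in the main fit. Deviations of same-numbered libraries correlated at r = 0.03, -0.20 and 0.0097 over 84 genes. With 2 libraries a group each r is a single comparison, so it cannot exclude that same-numbered libraries shared an experiment. With the replicate block 2, 2 and 0 members were called, and 17, 18 and 8 of all genes in place of 15, 19 and 3. Depth limits the rare members most: IGKV1-99, IGKV1-35 and IGKV1-115 did not reach 10 clonotypes in 2 libraries.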
